A study of Mus musculus with 6 samples.

Results

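The carriers of the SLC25 family were examined in the livers of mice that lack Acsm3, a medium-chain acyl-CoA synthetase of the mitochondrial matrix. The members are the genes of the deposited table whose symbol is Slc25a followed by a number, leaving out Slc25a15 and Slc25a20, which are not analysed here. This rule found 43 genes of the 28450 listed. It used no measured value, and it does not take in the uncoupling proteins, which belong to the family but carry other symbols. Livers came from 3 male mice with an Acsm3 knockout and 3 male controls labelled as wild type, all 12 weeks old and fed normal diet. Each mouse gave 1 library of mRNA captured on beads. The sources used here do not give the part of Acsm3 that was disrupted, the cells in which it was lost or whether controls were littermates. Mouse values stand in the order of replicates 1, 2 and 3 throughout.

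SLC25 carriers span the inner mitochondrial membrane with 3 repeats of a pair of helices, except for a few that sit in the outer membrane or in peroxisomes. Most exchange a substrate of the matrix for a substrate of the cytosol, and together they move ADP and ATP, phosphate, citrate, malate, amino acids, glutathione, nucleotides, cofactors and iron. In liver they serve gluconeogenesis, ureagenesis, the export of citrate for lipid synthesis and the shuttles that carry the electrons of cytosolic NADH into mitochondria.

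Levels are FPKM, fragments per kilobase of gene and per 1000000 fragments, so that genes of different length can be set side by side. From the spacing of low values, each library held an estimated 15300000 to 16300000 fragments. Acsm3 measured 33.2, 34.4 and 32.2 FPKM in control mice against 0.668, 2.92 and 1.08 FPKM in knockout mice. Hepatocyte markers (8 genes, among them Alb, Ttr and Cps1) were present in every library and summed to 41818 to 50110 FPKM in controls and 31025 to 34126 FPKM in knockouts. Most of this sum was Alb, at a mean of 34484 FPKM in controls and 22584 FPKM in knockouts. Cps1 averaged 932 and 837 FPKM. Markers of macrophages (7 genes) summed to 163 to 252 FPKM in controls and 287 to 543 FPKM in knockouts. Markers of stellate cells (5 genes) went from 36.6 to 43.4 FPKM in controls to 63.6 to 74.8 FPKM in knockouts, and endothelial markers (5 genes) lay at 33.6 to 39.2 FPKM in control and 44.8 to 65.3 FPKM in knockout mice. Whole liver RNA cannot tell fewer cells of a type from less RNA per cell.

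Of the 43 carriers, 33 averaged 1 FPKM or more across the mice and were tested with all 10996 such genes (limma on log2(FPKM + 1), Benjamini-Hochberg over all of them, threshold 0.05). Slc25a4 and Slc25a24 rose in the knockouts, and Slc25a13, Slc25a11 and Slc25a48 fell. Among all tested genes 13.9% were called higher and 2.61% lower, 16.5% in all. The carriers called were 6.06% higher and 9.09% lower, 15.2% in all, so their total lay near the background. The median log2 fold change, knockout minus control, was -0.06 over the 33 tested carriers and 0.13 over all tested genes. The median size of the change, regardless of sign, was 0.16 for carriers and 0.19 for all tested genes on the same log2 scale. Genes were not matched for level here. The fold changes below are log2 differences of FPKM + 1, each ± its SE from limma (n = 3 per group), and they understate the change of genes at low FPKM.

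The split between higher and lower calls depended on how libraries were scaled. After median-ratio rescaling 2 carriers were higher and 8 lower, where 7.57% of all tested genes were higher and 6.70% lower, 14.3% in all. The 8 were Slc25a1, Slc25a10, Slc25a11, Slc25a13, Slc25a23, Slc25a25, Slc25a42 and Slc25a48. After quantile normalization 1 was higher and 5 were lower, against 6.84% and 5.48% of all tested genes (12.3% in all). When each library was rescaled to a common sum of 1000000, 37 carriers passed the filter. Of these 6 were higher and 3 lower, against 18.9% and 1.74% of all 13660 tested genes (20.6% in all). Deposited libraries summed to 364308 to 395208 FPKM, so the filter and pseudocount of 1 acted at lower FPKM here. Scaling was therefore not the only change in this alternative. With voom on fragments recovered from FPKM, an alternative chosen after the data were seen, 4 were higher and 4 lower, against 16.4% and 2.88% (19.3% in all). Median-ratio rescaling moved the median of all tested genes from 0.13 to -0.000914 and that of the carriers from -0.06 to -0.22. The 5 carriers called on FPKM as deposited kept their sign under all 3 rescalings, and Slc25a4 alone lost its call, with quantile normalization (adjusted p = 0.063). Of the 33, 14 carriers changed sign in at least 1 alternative, and 0 of these were called on FPKM as deposited.

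**Figure D1:**
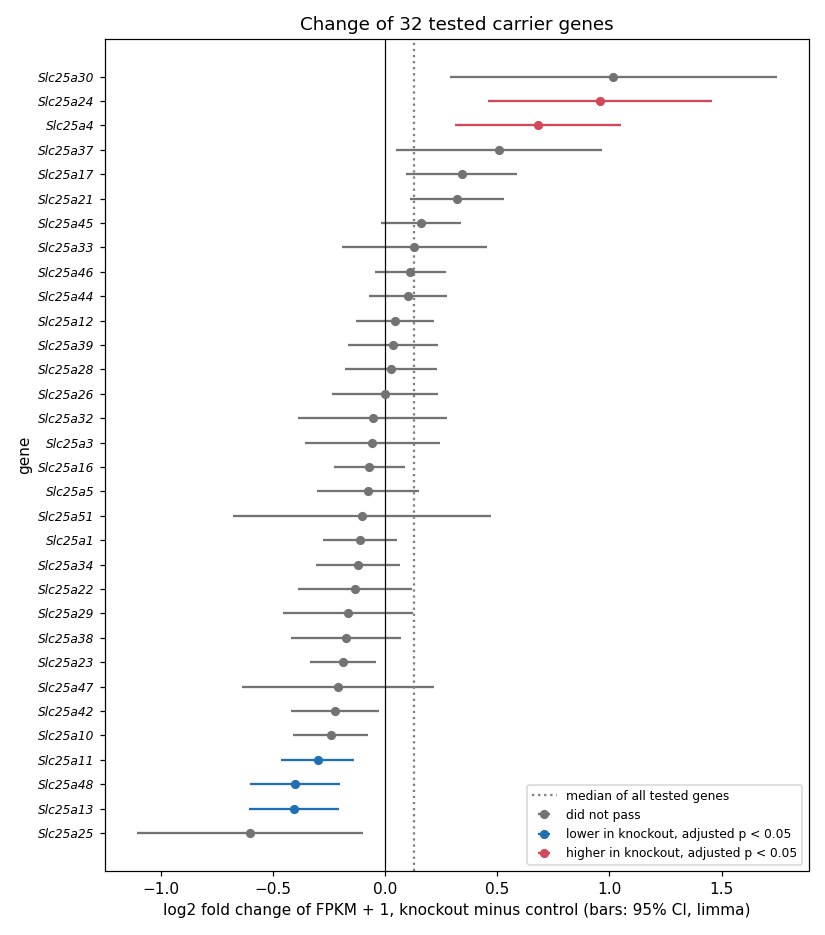
Log2 fold change of FPKM + 1, knockout minus control, for 32 tested carriers (points) with the 95% confidence interval of limma (bars). The dotted line is the median of all tested genes, 0.13; Slc25a24 and Slc25a4 (red) lie above 0, Slc25a11, Slc25a48 and Slc25a13 (blue) below it, and the other 27 intervals belong to genes that did not pass.

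**Figure D2:**
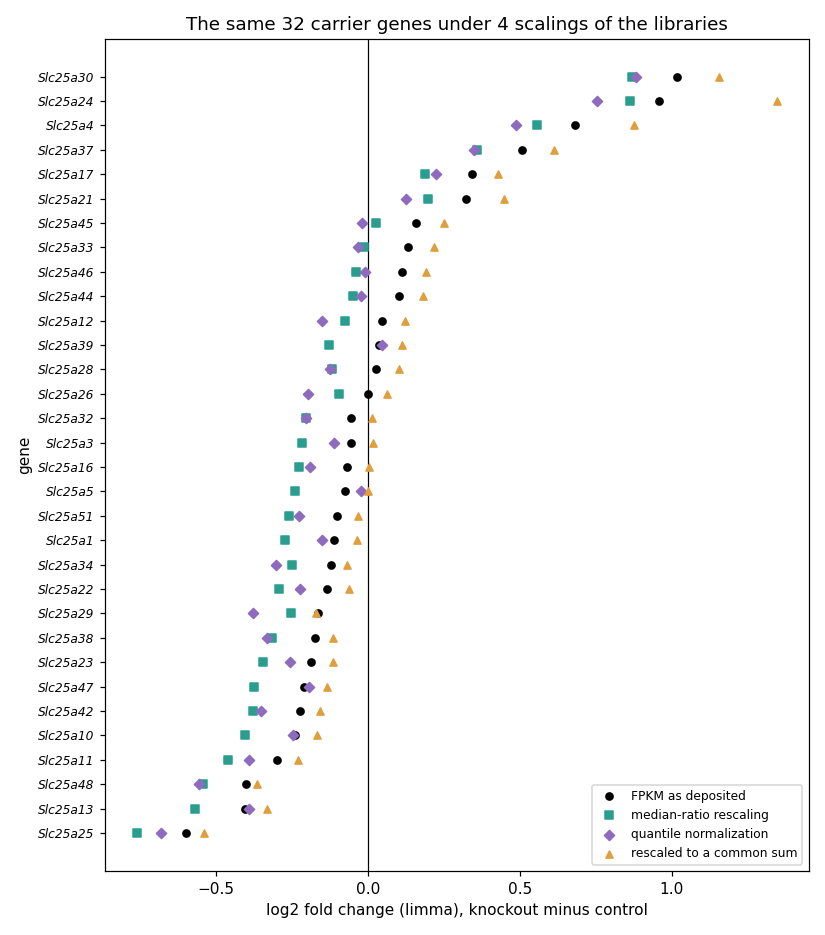
Log2 fold change (limma, horizontal axis) of the same 32 carriers under 4 scalings of the libraries. The circles are FPKM as deposited, and the other symbols are median-ratio rescaling, quantile normalization and rescaling to a common sum; carriers near 0 change sign between scalings, while Slc25a24 and Slc25a4 stay above 0 and Slc25a13, Slc25a11 and Slc25a48 below it.

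The 5 calls depended on which mice were included. All 5 held without knockout 3 (limma adjusted p from 0.00796 to 0.0433). None held without control 1 (adjusted p from 0.0688 to 0.0853), control 2 (0.0791 to 0.0924), control 3 (0.0801 to 0.0962) or knockout 2 (0.0797 to 0.116), and without knockout 1 Slc25a48 alone held (adjusted p = 0.0427, the others up to 0.0944). Over all genes the number of calls went from 1819 with all mice to between 287 and 641 without 1 of these mice, and to 2250 without knockout 3.

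The levels of the carriers spread over 4 orders of magnitude that the plot of levels shows on a log axis. The highest was Slc25a47, a carrier found mainly in liver whose substrate is debated, at rank 195 of the 28450 genes. It was followed by Slc25a5, the ADP/ATP carrier ANT2 (rank 203), Slc25a39, which imports glutathione (rank 345), and Slc25a13, the aspartate/glutamate carrier citrin (rank 462). These 4 genes held 56.0% to 60.2% of the summed FPKM of the 43 carriers in each library. The sum was 1283, 1130 and 1170 FPKM in control mice and 1068, 1094 and 1141 FPKM in knockout mice. The ranges overlapped, and this made up 0.292% to 0.325% of the FPKM of all genes in control mice and 0.293% to 0.303% in knockout mice. The median coefficient of variation of the 33 tested carriers was 7.5% in controls and 8.34% in knockouts, against 9.89% and 11.1% over all tested genes. This comparison was not matched for level: the median level was 13.4 FPKM for tested carriers and 5.11 FPKM for all tested genes.

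**Figure D3:**
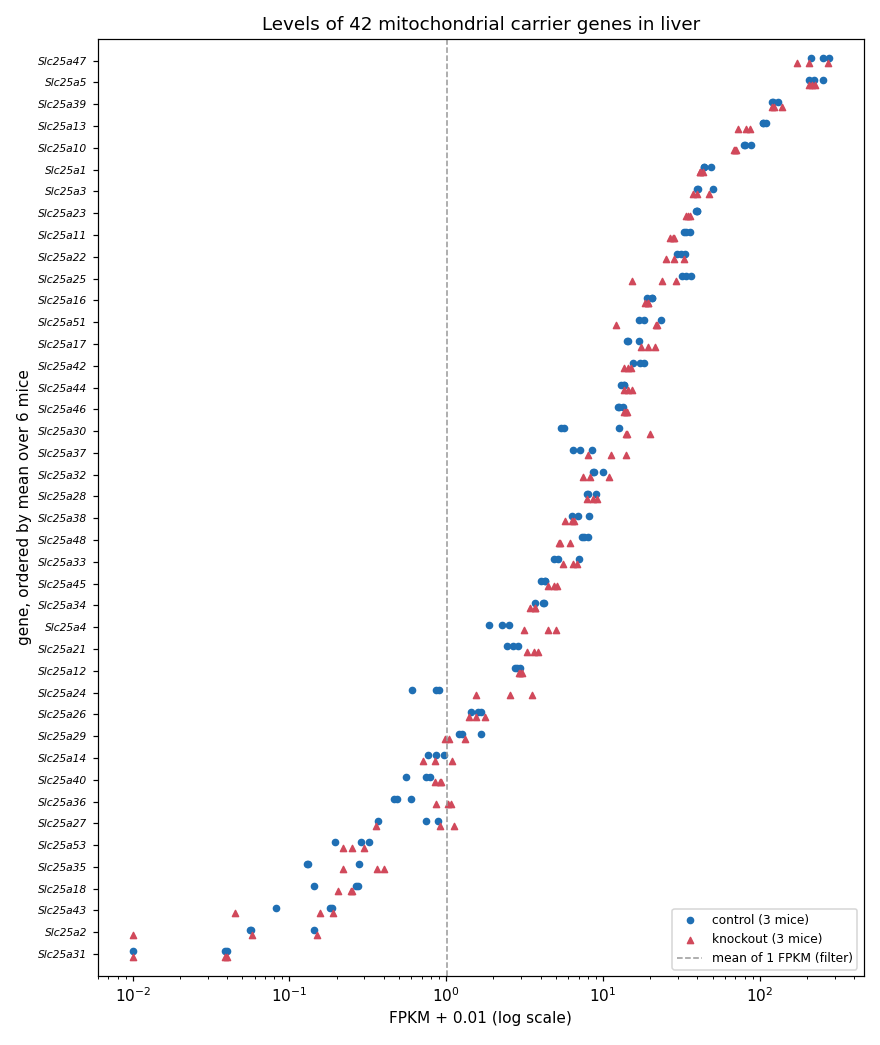
FPKM + 0.01 on a log axis for 42 carriers in the 3 control (circles) and 3 knockout mice (triangles), ordered by the mean over 6 mice. Slc25a47 and Slc25a5 stand at the top, Slc25a31 at the bottom, and the 10 carriers with a mean left of the dashed line at 1 FPKM were not tested.

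Among the carriers of adenine nucleotides, the ADP/ATP exchangers moved unevenly. Slc25a4 encodes ANT1, the isoform known from heart and skeletal muscle. It measured 1.87, 2.50 and 2.25 FPKM in control mice against 4.45, 4.999 and 3.13 FPKM in knockout mice. The groups did not overlap, with knockout 3 nearest to the controls, and the gene rose by 0.68 ± 0.16 (limma adjusted p = 0.0332). The mean in knockouts was 1.90 times that in controls. Slc25a5, the main hepatic isoform, stayed far above it at 228 ± 23.8 FPKM in controls and 215 ± 9.65 FPKM in knockouts (SD, n = 3). Its log2 fold change was -0.08 ± 0.10 (adjusted p = 0.605, 95% interval -0.30 to 0.15). Slc25a4 therefore made up 0.972% ± 0.208 of the summed FPKM of both isoforms in controls and 1.90% ± 0.357 in knockouts (SD, n = 3). The shares did not overlap (exact two-sided permutation p = 0.1, the smallest that 3 against 3 mice allow, and adjusted p = 0.167 over 5 pairs of related carriers). Of the 50-base words in Slc25a5 transcripts, 33.8% also occur in transcripts of other annotated genes, with a processed pseudogene sharing the most, and 0% of those of Slc25a4 do. The sources used here do not say how such fragments were assigned, so the level of Slc25a5 is uncertain. Of 4 muscle markers listed, 2 are used here: Acta1 and Tnnt3 summed to 0 FPKM in all 3 controls and to at most 0.0406 FPKM in a knockout. The part of muscle RNA in the level of Slc25a4 was not tested. Slc25a31, the isoform of the male germ line, reached at most 0.0302 FPKM.

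The calcium-sensitive ATP-Mg/phosphate carriers, which set the adenine nucleotide pool of the matrix, also differed from each other. Slc25a24 (SCaMC-1) measured 0.856, 0.884 and 0.594 FPKM in control mice against 2.54, 3.52 and 1.55 FPKM in knockout mice. Knockout 2 was highest and knockout 3 lowest of the knockouts, and all 3 lay above the controls. The gene rose by 0.96 ± 0.21 (limma adjusted p = 0.0304), a 3.27-fold difference of the FPKM means. These values rest on 32 to 185 fragments. Slc25a23 (SCaMC-3), the most abundant of the group, was at 39.8 ± 0.31 FPKM in controls and 34.9 ± 0.962 FPKM in knockouts (SD, n = 3). All of its knockout values lay below the control values, but it did not pass (-0.19 ± 0.06, limma adjusted p = 0.0816), except after median-ratio rescaling (adjusted p = 0.0285). Slc25a25 (SCaMC-2) measured 33.6, 32.0 and 36.3 FPKM in control mice against 29.0, 23.9 and 15.3 FPKM in knockout mice. Knockout 3 was the lowest, and the change of -0.60 ± 0.21 did not pass (limma adjusted p = 0.095), except after median-ratio rescaling (adjusted p = 0.0393). Slc25a23 made up 98.1% ± 0.375 of the sum of Slc25a23 and Slc25a24 in controls and 93.2% ± 2.59 in knockouts (SD, n = 3, no overlap, exact permutation p = 0.1, adjusted p = 0.167). Of the sum of Slc25a23 and Slc25a25 it made up 54.0% ± 1.77 and 61.1% ± 7.45 (exact permutation p = 0.2, adjusted p = 0.2).

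Several markers of other liver cells were also higher in the knockouts, as Slc25a4 and Slc25a24 were. Macrophage markers summed to 536, 543 and 287 FPKM in knockouts 1, 2 and 3, and 4 of 7 tested rose (Cd68, Lyz2, Cd5l and Adgre1). Of stellate markers 4 of 5 tested rose, of endothelial markers 2 of 5 and of neutrophil markers 1 of 2. Ptprc was the 1 lymphocyte marker tested and rose. Over all tested genes 13.9% were called higher. Among those that did not pass were the endothelial marker Kdr (-0.01 ± 0.19, limma adjusted p = 0.986) and the neutrophil marker S100a9 (0.86 ± 0.42, adjusted p = 0.191). Ly6g was at 0 in every library, and Mpo reached at most 0.0573 FPKM. Knockout 3 was lowest of the knockouts in the sums of macrophage, stellate, endothelial, lymphocyte and neutrophil markers, as it was for Slc25a4 and Slc25a24. In stellate markers it lay close to knockout 1 (64.8, 74.8 and 63.6 FPKM). Knockout 3 was highest of the knockouts in the sums of erythroid markers (333, 383 and 534 FPKM) and hepatocyte markers. The part of any of these cell types in the rise of Slc25a4 or Slc25a24 was not tested.

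**Figure D4:**
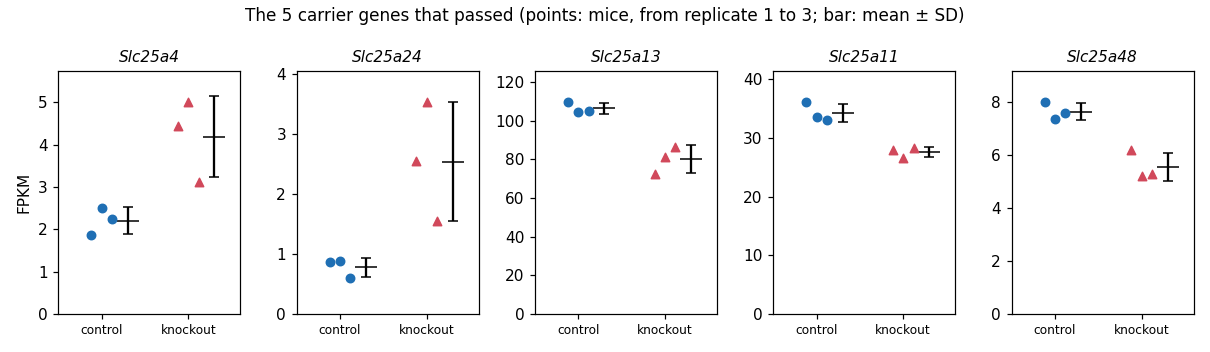
FPKM of the 5 carriers that passed in each mouse (points, replicates 1 to 3 from left to right in each group) with the mean ± SD (bars), each axis starting at 0. In all 5 panels the 3 knockout values lie wholly above (Slc25a4, Slc25a24) or below (Slc25a13, Slc25a11, Slc25a48) the 3 control values.

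The largest fall in FPKM among the called carriers was that of Slc25a13. Citrin, its product, exports aspartate from liver mitochondria in exchange for glutamate, a step shared by the malate-aspartate shuttle and the urea cycle. Slc25a13 measured 109, 105 and 105 FPKM in control mice against 72.6, 81.5 and 86.6 FPKM in knockout mice. The groups lay apart, and the mean was 24.6% lower in knockouts (-0.41 ± 0.08, limma adjusted p = 0.0274). Its relative Slc25a12 (aralar), the isoform of brain and muscle, was low at 2.85 ± 0.107 FPKM in controls and 2.97 ± 0.0717 FPKM in knockouts (SD, n = 3) and did not pass (0.04 ± 0.07, adjusted p = 0.701). Aralar made up 2.60% ± 0.0403 of the sum of both in controls and 3.58% ± 0.26 in knockouts (SD, n = 3, no overlap, exact permutation p = 0.1, adjusted p = 0.167). Of the glutamate carriers, Slc25a22 was at 31.5 ± 1.78 and 28.7 ± 3.82 FPKM (SD, n = 3, limma adjusted p = 0.405). Slc25a18 reached at most 0.264 FPKM and was not tested.

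Slc25a11, the oxoglutarate/malate carrier and the other carrier of the malate-aspartate shuttle, fell as well. It measured 36.0, 33.6 and 33.1 FPKM in control mice against 27.9, 26.6 and 28.3 FPKM in knockout mice. The mean was 19.4% lower (-0.30 ± 0.07, limma adjusted p = 0.0339), and the 3 knockouts lay close together below the lowest control. Exons of Slc25a11 share 189 bp (8.92% of its exon length) with Rnf167 on the opposite strand, and the sources used here do not say whether strand was kept.

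The enzymes of the same shuttles were uneven. Got1, the cytosolic aspartate aminotransferase, measured 129, 143 and 189 FPKM in control mice against 70.2, 53.3 and 90.1 FPKM in knockout mice. It fell by 1.11 ± 0.22 on the log2 scale (limma adjusted p = 0.0235). The matrix enzyme Got2 (-0.08 ± 0.07), cytosolic Mdh1 (-0.17 ± 0.10) and matrix Mdh2 (0.07 ± 0.08) did not pass. In the glycerol phosphate shuttle, which needs no SLC25 carrier, the mitochondrial dehydrogenase Gpd2 rose from 6.32 ± 0.403 to 10.8 ± 1.39 FPKM (SD, n = 3, 0.68 ± 0.10, limma adjusted p = 0.0138) and cytosolic Gpd1 did not pass (0.12 ± 0.11, adjusted p = 0.485). Got1 lost its call without control 2, control 3, knockout 1 or knockout 2 (adjusted p up to 0.0715), and Gpd2 without control 2 or control 3 (adjusted p up to 0.057). Hepatocyte markers stood beside the falls of Slc25a13, Slc25a11 and Got1: 2 of 8 tested fell (Alb and Ttr), 0 rose, and their median log2 fold change was -0.28. Over all tested genes 2.61% were called lower, and the median was 0.13. The part of hepatocyte content in the falls of Slc25a13, Slc25a11 and Got1 was not tested.

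**Figure D5:**
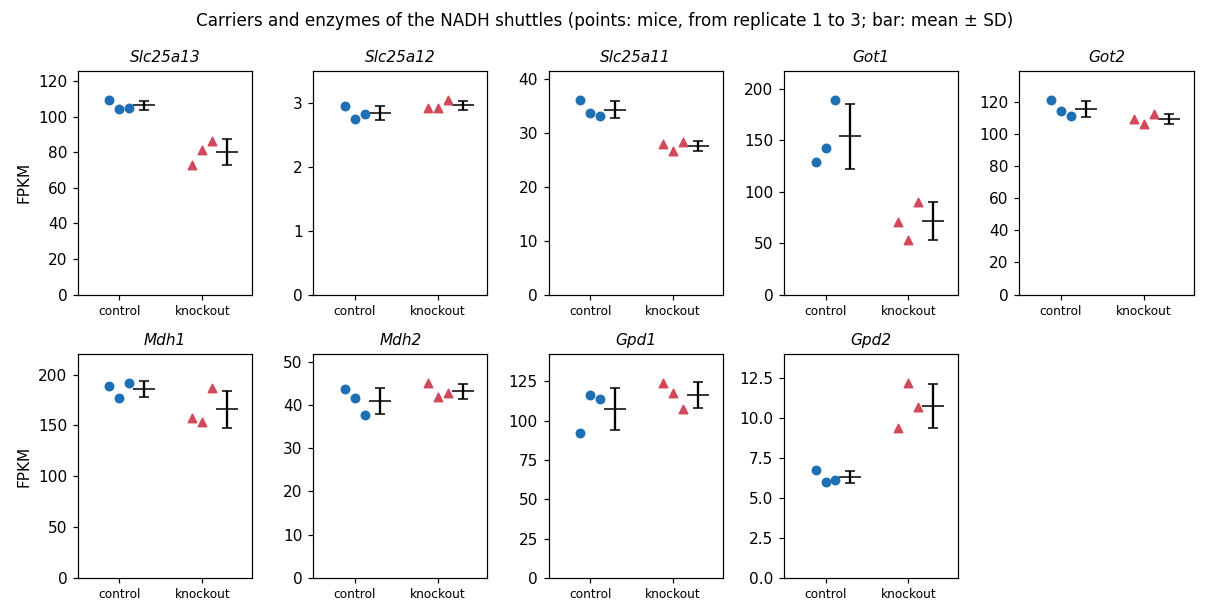
FPKM in each mouse (points, replicates 1 to 3 from left to right) with the mean ± SD (bars) for the carriers Slc25a13, Slc25a12 and Slc25a11 and for the enzymes of the malate-aspartate (Got1, Got2, Mdh1, Mdh2) and glycerol phosphate (Gpd1, Gpd2) shuttles, each axis starting at 0. Slc25a13, Slc25a11 and Got1 are lower and Gpd2 is higher in all 3 knockouts than in any control, while the other panels did not pass the test.

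Slc25a10 and Slc25a1 were lower in every knockout than in any control without passing. Slc25a10, which exchanges malate or succinate for phosphate, measured 88.0, 80.5 and 79.5 FPKM in control mice against 68.5, 70.0 and 70.5 FPKM in knockout mice. The groups lay apart, and the change of -0.24 ± 0.07 missed the threshold (limma adjusted p = 0.0587). It passed after median-ratio rescaling (adjusted p = 0.0245), after quantile normalization (0.0471) and with voom on recovered fragments (0.0491). Slc25a1, the citrate exporter that supplies cytosolic acetyl-CoA, was at 45.7 ± 2.49 and 42.2 ± 0.973 FPKM (SD, n = 3, -0.11 ± 0.07, limma adjusted p = 0.295), with a call after median-ratio rescaling (adjusted p = 0.0441). Slc25a21, the oxoadipate carrier of lysine breakdown, was higher in every knockout, at 2.65 ± 0.199 FPKM in controls and 3.57 ± 0.297 FPKM in knockouts (SD, n = 3). Its change of 0.32 ± 0.09 lay just outside the threshold (limma adjusted p = 0.0509) and passed with a pseudocount of 0.1 (0.0484), after rescaling to a common sum (0.0325) and with voom (0.046).

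Of 4 enzymes around citrate export, 3 rose and Acly did not pass. Citrate synthase, Cs, rose from 14.7 ± 1.49 to 23.1 ± 0.769 FPKM (0.62 ± 0.09, limma adjusted p = 0.0124). The malic enzyme Me1 rose from 24.0 ± 2.78 to 36.9 ± 2.19 FPKM (0.61 ± 0.10, adjusted p = 0.0159), and acetyl-CoA carboxylase, Acaca, from 2.98 ± 0.103 to 5.01 ± 0.716 FPKM (0.59 ± 0.10, adjusted p = 0.0194, all SD with n = 3). ATP citrate lyase, Acly, was lower in all knockouts, at 22.1 ± 2.28 and 17.2 ± 0.952 FPKM, and missed the threshold (-0.34 ± 0.09, limma adjusted p = 0.0532). It passed after median-ratio rescaling (0.0378), quantile normalization (0.047), with voom (0.0417), with the filter at 5 FPKM (0.0481) and without control 1 (0.0442). Cs kept its call with each mouse left out. Me1 lost it without control 2, control 3 or knockout 2 (adjusted p up to 0.0629), and Acaca held without knockout 3 alone (adjusted p up to 0.0692 without another mouse).

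Slc25a48, which has been linked to mitochondrial choline import, fell too. It measured 7.997, 7.36 and 7.60 FPKM in control mice against 6.18, 5.23 and 5.28 FPKM in knockout mice. The groups did not overlap, and the mean was 27.3% lower (-0.40 ± 0.08, limma adjusted p = 0.0283). Slc25a47, the most abundant carrier, varied most between mice of 1 group among the top 4. It measured 275, 212 and 255 FPKM in control mice against 173, 205 and 271 FPKM in knockout mice, so that knockout 3 lay within the control range (-0.21 ± 0.18, limma adjusted p = 0.44). On chromosome 12 its deposited span lies 162 bp from that of Slc25a29, a carrier of basic amino acids on the other strand. The RefSeq start sites (GRCm38.p6) lie further apart, at 108851129 for Slc25a47 and 108835876 for Slc25a29. The pair differed 188-fold in mean level, with Slc25a29 at 1.37 ± 0.262 FPKM in controls and 1.11 ± 0.175 FPKM in knockouts (SD, n = 3).

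None of the 8 tested carriers of nucleotides and cofactors passed on FPKM as deposited (limma). Slc25a17, the peroxisomal carrier of CoA, FAD and NAD, measured 16.9, 14.5 and 14.2 FPKM in control mice against 17.6, 21.6 and 19.4 FPKM in knockout mice. All knockouts lay above the controls, knockout 1 by little (0.34 ± 0.10, limma adjusted p = 0.0662), and it passed after rescaling to a common sum (adjusted p = 0.0325). Slc25a42, which brings CoA into the matrix, lay the other way at 17.0 ± 1.32 FPKM in controls and 14.3 ± 0.714 FPKM in knockouts (SD, n = 3, -0.23 ± 0.08, limma adjusted p = 0.103). It passed after median-ratio rescaling (0.0291) and quantile normalization (0.0442). Slc25a16, also tied to matrix CoA, was at 20.1 ± 0.822 and 19.1 ± 0.409 FPKM (SD, n = 3, limma adjusted p = 0.483). Slc25a51, the NAD carrier, was at 12.0 FPKM in knockout 1 and between 17.1 and 23.6 FPKM in the other 5 mice (limma adjusted p = 0.793). The carriers of S-adenosylmethionine (Slc25a26), folate or FAD (Slc25a32) and pyrimidine nucleotides (Slc25a33) had overlapping groups and adjusted p from 0.532 to 0.996 (limma).

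Slc25a30 did not pass although its estimate on the log2(FPKM + 1) scale was above that of Slc25a24, which had the larger ratio of FPKM means (3.27 against 2.04). Slc25a30 (KMCP1), an uncoupling protein-like carrier, measured 12.6, 5.40 and 5.61 FPKM in control mice against 14.1, 14.1 and 20.03 FPKM in knockout mice. Control 1 was more than 2 times either of the other controls. The change was 1.02 ± 0.31 (limma adjusted p = 0.0639), and without control 1 it was 1.37 with a call (adjusted p = 0.0218). It also passed after rescaling to a common sum (0.0438) and with voom (0.0449). Slc25a14 and Slc25a27, the other carriers of this kind, had means under 1 FPKM. Among family members with other symbols, Ucp2 rose from 4.27 ± 0.306 to 10.4 ± 3.91 FPKM (SD, n = 3, 1.05 ± 0.24, limma adjusted p = 0.0321). Its knockout values were 10.0, 14.5 and 6.66 FPKM in mice 1, 2 and 3. The sums of macrophage, stellate, endothelial and lymphocyte markers had the same order in knockouts. In controls Ucp2 measured 4.61, 4.02 and 4.18 FPKM, and none of these sums had that order (macrophage markers 222, 252 and 163 FPKM). The part of any of these cell types in the rise of Ucp2 was not tested. The call of Ucp2 held without knockout 3 but was lost when any other mouse was left out (adjusted p up to 0.0985). Ucp1 was at 0 in every library, Ucp3 at no more than 0.0625 FPKM, and the outer membrane proteins Mtch1 and Mtch2 did not pass (adjusted p = 0.391 and 0.727).

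Iron, glutathione and phosphate carriers gave no call. Slc25a37 (mitoferrin-1), the iron importer of developing red cells, measured 8.54, 7.16 and 6.41 FPKM in control mice against 11.3, 7.98 and 13.9 FPKM in knockout mice. Knockout 2 fell within the control range (0.51 ± 0.19, limma adjusted p = 0.114). Slc25a28 (mitoferrin-2), its counterpart in other cells, was at 8.34 ± 0.622 and 8.51 ± 0.641 FPKM (SD, n = 3, adjusted p = 0.85). Slc25a37 made up 46.8% ± 2.16 of both in controls and 55.8% ± 7.91 in knockouts (SD, n = 3, overlapping, exact permutation p = 0.2, adjusted p = 0.2). Erythroid markers (6 genes) summed to 342, 255 and 371 FPKM in control mice and 333, 383 and 534 FPKM in knockout mice. Knockout 3 was highest of all mice in both this sum and Slc25a37, while the order of the other mice differed between them. Of 5 tested, 1 rose, Alas2, which starts haem synthesis in red cells, where 13.9% of all tested genes were called higher. The part of red cells in the level of Slc25a37 was not tested. Slc25a38, the glycine carrier of haem synthesis, was at 7.14 ± 0.929 and 6.19 ± 0.427 FPKM (SD, n = 3, limma adjusted p = 0.269). Slc25a39 was at 124 ± 5.42 and 127 ± 10.4 FPKM (SD, n = 3, 95% interval of the log2 change -0.17 to 0.24, adjusted p = 0.797). Slc25a3, which brings phosphate to ATP synthase, was at 43.4 ± 5.89 and 41.6 ± 5.13 FPKM (SD, n = 3, 95% interval -0.36 to 0.24, adjusted p = 0.778).

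Other tested carriers were Slc25a44 (branched-chain amino acids), Slc25a46 (an outer membrane protein of mitochondrial dynamics), Slc25a45 and Slc25a34. Slc25a46 lay higher in every knockout, at 12.8 ± 0.502 and 13.97 ± 0.328 FPKM (SD, n = 3), as did Slc25a45, at 4.18 ± 0.129 and 4.79 ± 0.303 FPKM. Slc25a44 was at 13.4 ± 0.394 and 14.5 ± 0.9 FPKM and Slc25a34 at 4.02 ± 0.285 and 3.61 ± 0.145 FPKM, both with overlapping groups. None of the 4 passed (limma adjusted p from 0.181 to 0.353), and after median-ratio rescaling the estimates of Slc25a44 and Slc25a46 turned to -0.05 and -0.04. In all, the 3 knockouts lay wholly above the controls in 7 tested carriers (21.2%) and wholly below in 8 (24.2%). The same counts over all tested genes were 33.9% above and 7.91% below, 41.8% in all, on FPKM without rescaling. Of the 10 carriers below the filter, Slc25a36, a pyrimidine nucleotide carrier, measured 0.478, 0.586 and 0.451 FPKM in control mice against 1.02, 1.06 and 0.851 FPKM in knockout mice, and Slc25a40 also lay higher in every knockout (0.684 ± 0.121 and 0.885 ± 0.0388 FPKM, SD, n = 3). The others were Slc25a53, Slc25a35, Slc25a43 and Slc25a2 beside those named above, at means of at most 0.318 FPKM in either group.

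The machinery around the carriers was described by lists chosen for their place in carrier import and mitochondrial transport. Of the carrier import list (TOM subunits, small TIM chaperones and TIM22), 1 of 13 tested rose and 1 fell. Tomm20, an import receptor, rose (0.31 ± 0.07, limma adjusted p = 0.0328), and Tomm40, the import pore, fell (-0.27 ± 0.07, adjusted p = 0.048). In the presequence translocase 1 of 8 tested fell, Timm17b (-0.36 ± 0.09, adjusted p = 0.0431). The outer membrane channels Vdac1, Vdac2 and Vdac3 gave 0 calls among 3 tested genes by limma, with 0 at an unadjusted p under 0.05. Vdac2 changed by an estimated -0.10 ± 0.07 (adjusted p = 0.337) and was called lower after median-ratio rescaling (0.0447). Vdac1 changed by -0.08 ± 0.07 (adjusted p = 0.421). Of 16 other inner membrane transporters tested, Micu2, a gatekeeper of the calcium uniporter, rose (0.72 ± 0.14, adjusted p = 0.024) and the sideroflexin Sfxn2 fell (-0.32 ± 0.08, adjusted p = 0.0376). The pyruvate carrier subunits Mpc1 and Mpc2 did not pass, except Mpc2 as lower with a replicate block (limma adjusted p = 0.0298). Of 6 regulators of mitochondrial genes, the nuclear receptor gene Esrra fell from 17.7 ± 1.43 to 11.9 ± 1.1 FPKM (SD, n = 3, -0.54 ± 0.09, limma adjusted p = 0.0194), and its coactivator gene Ppargc1a did not pass (-0.47 ± 0.18, adjusted p = 0.115). Over the 8 lists of this kind, shuttle and citrate enzymes included, 7 of 59 tested genes were higher (11.9%) and 5 lower (8.47%), where the background was 13.9% and 2.61%. Tomm20, Tomm40, Timm17b and Sfxn2 lost their calls without any 1 of the 6 mice (adjusted p from 0.0523 to 0.155), and Tomm20 also after median-ratio rescaling (0.201) and quantile normalization (0.167). Rescaling to a common sum ended the calls of Timm17b (0.074), Sfxn2 (0.0814) and Tomm40 (0.0936), and Tomm40 also missed the threshold with a pseudocount of 5 (0.0503) and without trend (0.0553). Micu2 lost its call without control 1, control 3, knockout 1 or knockout 2 (adjusted p up to 0.084), and Esrra without control 1, control 2, control 3 or knockout 2 (up to 0.0593). Median-ratio rescaling also gave lower calls for Sfxn1 (0.0256), Tomm7 (0.0261) and Timm8b (0.0378). Quantile normalization did so for Tomm7 (0.0265), Sfxn1 (0.0266), Timm8b (0.0423) and Pam16 (0.0489). Over all tested genes 6.7% and 5.48% were called lower in these 2 settings. Ghitm was called higher after rescaling to a common sum (0.0381).

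Promoter sequences are shown for 3 called carriers, to set a gene that rose beside 2 that fell; those of Slc25a4 and Slc25a11 overlap annotated exons and are not shown. RefSeq (GRCm38.p6) gave promoters for 33 of the 43 carriers. The 250 bases before the start are printed 5′ to 3′ on the strand of the gene, with capitals for matches to the motifs searched on both strands. Slc25a13 lies at chr6:6217174-6217423 on the minus strand, Slc25a48 at chr13:56438105-56438354 on the plus strand and Slc25a24 at chr3:109122899-109123148 on the plus strand.
Slc25a13: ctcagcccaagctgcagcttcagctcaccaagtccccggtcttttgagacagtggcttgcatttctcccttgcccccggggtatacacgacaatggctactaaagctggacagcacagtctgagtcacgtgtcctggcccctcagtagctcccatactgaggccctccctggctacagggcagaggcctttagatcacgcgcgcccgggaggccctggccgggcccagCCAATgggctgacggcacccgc
Slc25a48: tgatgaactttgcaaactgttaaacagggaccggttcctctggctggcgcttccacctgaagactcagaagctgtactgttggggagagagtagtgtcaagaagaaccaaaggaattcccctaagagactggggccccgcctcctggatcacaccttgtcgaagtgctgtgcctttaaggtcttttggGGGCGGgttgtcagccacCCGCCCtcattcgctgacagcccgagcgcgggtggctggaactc
Slc25a24: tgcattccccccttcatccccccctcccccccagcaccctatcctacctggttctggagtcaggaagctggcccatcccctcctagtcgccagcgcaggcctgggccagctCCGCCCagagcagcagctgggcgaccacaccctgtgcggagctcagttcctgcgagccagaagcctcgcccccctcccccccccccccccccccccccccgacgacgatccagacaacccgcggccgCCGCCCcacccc

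The 6 motifs searched were fixed letters, and none overlaps another in the windows printed. The Slc25a13 window held a CCAAT box (CCAAT), and those of Slc25a48 and Slc25a24 each held 2 GC boxes (GGGCGG, printed as CCGCCC where on the other strand). The GC box was in 29 of 42 carrier promoters (69.0%) and in 32.7% of all 32851 RefSeq promoters. CCAAT was in 21 of 42 carrier promoters and in 33.8% of all. The TATA box (TATAAA) was in 2 carrier promoters (4.76%, 12.4% of all). The NRF1 core GCATGCGC and the half-site of oestrogen-related receptors AAGGTCA were in 1 promoter each (2.38%, against 2.26% and 4.08% of all), and the cAMP response element TGACGTCA in 2 (4.76%, 1.55% of all). Median GC content was 56.8% in carrier promoters and 52.4% in all. These are matches of letters and not measured binding.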

How the data were processed

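The authors deposited FPKM per gene for every mouse in 1 table. The submitters' processing notes list StringTie 1.3.0, HISAT2 2.0.4 and Bowtie2 2.2.6 and the build GRCm38, with no roles. Groups and replicate numbers come from the sample titles. The members and gene lists were chosen with earlier results of these data known.

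FPKM were tested as log2(FPKM + 1) in limma 3.58.1 (R 4.3.3, lmFit, eBayes with trend) over 10996 genes averaging 1 FPKM or more, with Benjamini-Hochberg adjustment. P-values measure the spread between 3 mice per group. In simulated data for this comparison (10996 genes, 200 of them altered), the test recovered 45.7% of changes set at 1.5-fold. It recovered 77.0% at 2-fold and 94.3% at 4-fold, and 5.31% of calls were false. Fragment totals were estimated from FPKM and GENCODE M21 exon lengths, at which 98.0% to 98.2% of values under 20 fragments were whole within 0.1. They sum to 103% of these totals, so fragments per gene are estimates. Named were every carrier that passed, had a mean of at least 10 FPKM or belonged to a tested pair of relatives, and, of each list, up to 4 passing genes of largest change or the 2 of smallest p. Of the tested carriers, 1 is not reported here by name or drawn and stays in the counts. Other names were picked with their values in view. The alternatives tried were other pseudocounts, filters and scalings, no trend, a replicate block and leaving out each mouse.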

Additional observations from a re-analysis of the deposited data

How the results depend on the processing

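Relative to 1819 calls over all genes, limma made 650 without a filter, 1108 with a filter at 5 FPKM and 2820 after rescaling to a common sum, and 287 to 2250 with 1 mouse left out. Carriers called higher, 2 with all mice, numbered 0 without a filter, 0 with the filter at 5 FPKM (which removes both), 1 under quantile normalization, 6 when libraries were set to a common sum, 4 with voom on recovered fragments (added after the data were seen) and 0 to 2 with 1 mouse left out. Carriers called lower, 3 with all mice, numbered 0 without a filter, 8 after median-ratio rescaling, 5 after quantile normalization and 0 to 3 with 1 mouse left out. Without a filter 26129 genes were tested, and 14 of 43 carriers had an unadjusted p under 0.05. The carriers' median log2 fold change of -0.06 became -0.0111 without a filter, -0.22 after median-ratio rescaling, -0.19 under quantile normalization, 0.0341 with libraries set to a common sum and -0.0914 to 0.00424 with 1 mouse left out. Without a filter the 10 carriers under 1 FPKM enter this median, and the estimates of the other 33 are unchanged. The median of all tested genes, 0.13 on FPKM as deposited, moved as well. It was -0.000914 after median-ratio rescaling, -0.03 under quantile normalization and 0.229 with libraries set to a common sum. The cause of the other shifts was not tested. No call of a single carrier changed sign. The replicate block, under which carriers called stayed at 2 and 3, gave 2018 calls over all genes. Under it Mpc2 (limma adjusted p = 0.0298) and Acly (0.0424) gained a call as lower, and Sfxn2 (0.0564) and Tomm40 (0.0633) lost theirs. Without a filter Got1, Acaca, Ucp2, Micu2, Tomm20, Tomm40, Timm17b and Sfxn2 lost their calls (adjusted p from 0.0509 to 0.0856). Same-numbered mice had correlated deviations (r = 0.111, 0.0918 and 0.187 across genes), each mouse correlating best with its own number, but nothing in the labels ties the numbers, and 1 pair lay under 0.1. Carriers at the low end, such as Slc25a24 with 32 fragments in a control, are limited by depth.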
